A study of Mus musculus with 4 samples.

Results

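The genes described here are 10 nuclear genes whose products make, stabilise, tail or degrade the RNA of mitochondria, or set how many of these factors a cell makes: Tfam, Tfb1m, Tfb2m, Polrmt, Lrpprc, Slirp, Mtpap, Pnpt1, Ppargc1a and Nrf1. They were taken by symbol, each matched 1 row among the 22863 genes of the table, and all 10 were among the 17784 genes that were tested, those with a normalised read count of at least 10 in at least 2 samples. RNA-seq compared whole posterior eyes of C3H/f+/+ mice, a melatonin-proficient line without the Pde6b retinal degeneration allele of other C3H stocks (the labels give the strain as C3H), in subjective day and in objective day, with 2 samples per condition. Mice in subjective day were kept in the dark for 18 h and taken at circadian time 6, and mice in objective day had been in the light and were kept in the dark for 1 h before zeitgeber time 6. Another passage of the study gives a longer dark period for subjective day, and the age of the mice used for RNA-seq is not given in the sources used here. No drug or further allele distinguished the conditions. Each sample pooled 4 eyes of 1 female and 1 male, with the lens and anterior part removed, so that retina, retinal pigment epithelium (RPE), choroid and posterior sclera were sequenced together. In such bulk tissue, fewer cells of a type and less RNA per cell cannot be told apart.

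Mitochondria hold a small circular genome that encodes a few subunits of the respiratory chain, 2 ribosomal RNAs and the transfer RNAs to translate them, and every protein that copies, transcribes or degrades it comes from the nucleus. Polrmt is the RNA polymerase, Tfam packages the DNA and bends the promoter, and Tfb2m opens it, while the related Tfb1m methylates the small ribosomal RNA. The long transcripts are cut into single RNAs, which the Lrpprc-Slirp complex protects, the poly(A) polymerase Mtpap tails and the polynucleotide phosphorylase Pnpt1, with the helicase Supv3l1, degrades. Nrf1 (nuclear respiratory factor) and the ETS factor GABP bind the promoters of many of these genes, and Ppargc1a is the coactivator that links them to energy demand. Photoreceptor inner segments are packed with mitochondria, since the dark current of rods is costly in ATP.

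Of the 10 genes, 1 differed between the conditions: Pnpt1 was 33.1% lower in objective day than in subjective day. This call was lost when the trend of fold changes on the GC content of transcripts was removed, where its log2 fold change went from -0.58 to -0.13 (limma adjusted p = 0.621), and with 1 common variance prior for all genes (limma adjusted p = 0.153). The call required an adjusted p under 0.05 in limma over all genes tested, and 8.51% of all genes tested passed it, 7.45% with lower and 1.06% with higher values in objective day. The other 9 genes had log2 fold changes between -0.28 (Mtpap) and 0.23 (Polrmt) and did not pass. Conditions did not overlap for 6 of the 10 genes, 4 lower (Lrpprc, Slirp, Mtpap, Pnpt1) and 2 higher (Polrmt, Nrf1) in objective day, where 56.1% of all genes tested had conditions that did not overlap (28.2% lower, 27.9% higher). The log2 fold changes of the 10 genes had a median of -0.11, beside 0.01 over all genes tested. The counts for the 10 genes thus lay near those for the whole table. The 2 samples of a condition were separate biological replicates. Totals of normalised read counts were between 33278417 and 35236783 per sample, and replicates correlated on the log2 scale across genes with r = 0.991 (subjective day) and 0.993 (objective day).

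**Figure D1:**
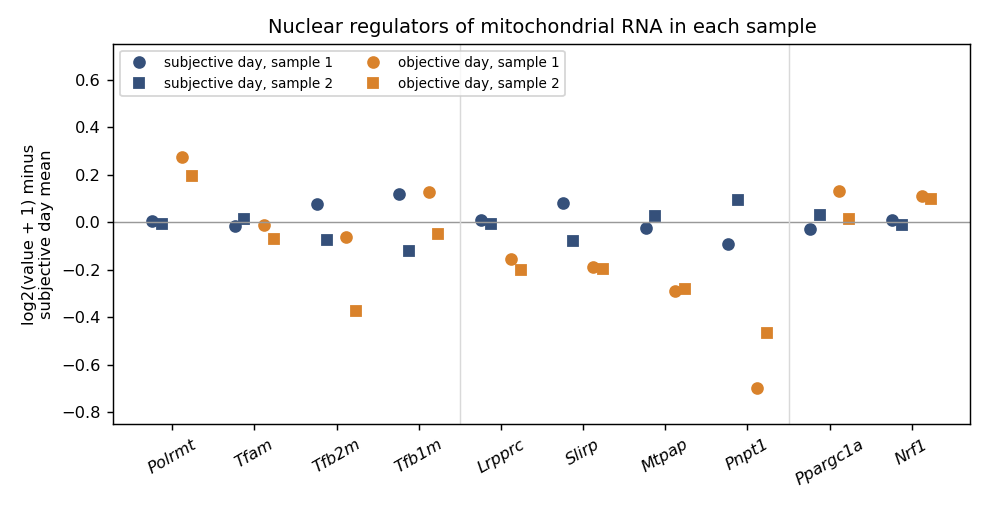
Log2(normalised read count + 1) of each of the 10 genes in each of the 4 samples, minus the mean of the subjective day samples, with circles for the first and squares for the second sample of a condition. Both objective day samples of Pnpt1 lie far below its subjective day samples (535 and 628 against 814 and 924 normalised reads), and the conditions overlap for Tfam, Tfb1m, Tfb2m and Ppargc1a.

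Windows before the start of transcription were available for 9 of the 10 genes (all but Mtpap) from RefSeq on GRCm38.p6, from 250 bases before to 50 bases after the start, and were searched on both strands for the core letters of the sites of the regulators above, GCATGCG for Nrf1 and CCGGAAG for GABP and other ETS factors. At least 1 of these cores was found in 4 of the 9 genes (Tfam, Tfb2m, Polrmt, Slirp), and neither was found in the windows of the other 5 (Tfb1m, Lrpprc, Pnpt1, Ppargc1a and Nrf1, the last with 2 windows). Over 32851 promoters of the same length, 3.58% held the Nrf1 core, 8.86% the ETS core and 11.8% at least 1 of them. A match of letters is a description and not a binding site. The stretches below show the matches of the transcription genes and of Slirp, and for comparison the bases just before the start of Pnpt1, the gene that differed. They are written on the strand of the gene with the matched letters in capitals, and an opposite-strand match is read as its reverse complement. Tfb2m holds the Nrf1 core on both strands, overlapping, 13 and 14 bases after the start, at chr1:179546246-179546275. Tfam holds 1 ETS core 47 bases before the start (chr10:71238075-71238104), Polrmt an Nrf1 core 132 and an ETS core 43 bases before it (chr10:79746607-79746726), and Slirp 3 ETS cores, of which the nearest pair is shown, 48 and 11 bases before it (chr12:87443841-87443895). The RefSeq start used for Tfam lies inside the gene span given below from the other annotation, so that its stretch does as well. The Pnpt1 stretch is at chr11:29130644-29130743. Tfb2m, Tfam and Polrmt lie on the minus strand, and Pnpt1 and Slirp on the plus strand.
Tfb2m: gctaggtcgttCGCATGCGccattcgtaat
Tfam: ctcctgccgcggaCCGGAAGtccgggcttc
Polrmt: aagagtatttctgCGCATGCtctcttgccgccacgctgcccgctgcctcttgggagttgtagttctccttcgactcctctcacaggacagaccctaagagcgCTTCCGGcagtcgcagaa
Slirp: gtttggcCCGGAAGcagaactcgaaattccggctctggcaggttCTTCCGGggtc
Pnpt1: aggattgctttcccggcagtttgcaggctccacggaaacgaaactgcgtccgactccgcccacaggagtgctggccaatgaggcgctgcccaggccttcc

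Among the genes of the transcription machinery, Polrmt had higher values in objective day without passing the test, and none of the others passed. Polrmt (ENSMUSG00000020329, GRCm38 chr10:79736123-79746581) had 1286 and 1274 normalised reads in subjective day, against 1548 and 1466 in objective day. Both objective day samples were above both subjective day samples. The log2 fold change was 0.23 (SE 0.0653, 95% CI 0.08 to 0.39, limma adjusted p = 0.0721), and it passed when all samples were scaled to equal totals (0.27, adjusted p = 0.0362), where 10.2% of all genes passed, and was 0.10 (adjusted p = 0.578) with the trend on GC content removed. Tfam (ENSMUSG00000003923, chr10:71225464-71238280) had 707 and 722 normalised reads in subjective day, against 709 and 681 in objective day. These values overlapped, and the interval of the log2 fold change ran from -0.22 to 0.14 (limma adjusted p = 0.779).

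The methyltransferase-like pair was the least abundant of the 10 genes. Tfb2m (ENSMUSG00000026492, chr1:179528055-179546267) had 227 and 204 normalised reads in subjective day, against 206 and 166 in objective day, and Tfb1m (ENSMUSG00000036983, chr17:3519256-3557781) had 254 and 215 against 255 and 226. The conditions overlapped in both genes, and in Tfb1m the replicates lay further apart than the condition means. The log2 fold change was -0.22 for Tfb2m (SE 0.148, limma adjusted p = 0.41) and 0.04 for Tfb1m (SE 0.133, limma adjusted p = 0.879), and that of Tfb2m was -0.37 without the first and -0.06 without the second objective day sample. That of Tfb1m turned to -0.05 without the first objective day sample and to -0.08 without the second subjective day sample. Tfb1m shares 142 exonic bases with Tiam2 on the opposite strand, and the libraries do not mark strand.

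In the second group, which protects, tails and degrades mitochondrial RNA, all 4 genes had lower values in both objective day samples than in both subjective day samples, as did 28.2% of all genes tested. With the trend on GC content removed, Slirp and Pnpt1 overlapped between conditions. Pnpt1 (ENSMUSG00000020464, chr11:29130744-29161828) fell from 869 ± 77.7 to 582 ± 66.1 normalised reads (SD, n = 2 per condition), with 814 and 924 in subjective day, against 535 and 628 in objective day. The log2 fold change was -0.58 (SE 0.106, 95% CI -0.83 to -0.33, limma adjusted p = 0.019). Without the first objective day sample it was -0.46 and no longer passed (limma adjusted p = 0.0785), while without any other single sample it passed. Its partner in decay, the helicase Supv3l1, had a log2 fold change of 0.03 (SE 0.0714, limma adjusted p = 0.827).

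The poly(A) polymerase Mtpap (ENSMUSG00000024234, chr18:4375592-4397330) had 552 and 571 normalised reads in subjective day, against 459 and 462 in objective day. The gap between conditions was wider than that between replicates, but the log2 fold change of -0.28 (SE 0.0827, 95% CI -0.48 to -0.09) did not pass (limma adjusted p = 0.0811), and with the trend on GC content removed it was -0.11 (limma adjusted p = 0.63). Mtpap shares 1147 exonic bases with the antisense gene Gm26865 and 224 with a gene on its own strand, AC138768.3, so that its reads are uncertain to that extent.

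Lrpprc and Slirp, which act as 1 complex and depend on each other for stability at the protein level, had nearly the same log2 fold change as deposited. With the trend on GC content removed, it was -0.12 (SE 0.0626) for Lrpprc and 0.01 (SE 0.0973) for Slirp, and neither passed. Lrpprc (ENSMUSG00000024120, chr17:84705247-84790789) had 3756 and 3706 normalised reads in subjective day, against 3351 and 3245 in objective day, the highest normalised read counts of the 10 genes. Slirp (ENSMUSG00000021040, chr12:87443896-87452206) had 615 and 551 in subjective day, against 510 and 508 in objective day. The objective day values were lower in both genes, with log2 fold changes of -0.18 for Lrpprc (SE 0.0577, limma adjusted p = 0.108) and -0.19 for Slirp (SE 0.0899, limma adjusted p = 0.229), and neither passed. That of Slirp was -0.12 without the first subjective day sample and -0.27 without the second, while that of Lrpprc stayed between -0.20 and -0.15 without single samples. Of its 3.1 kb of exon, Slirp shares 2914 bases with Snw1 and 122 with Alkbh1, both on the opposite strand. Reads of these genes cannot be told apart from its own in libraries without strand, a limit for every Slirp value given here.

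Neither regulator of mitochondrial biogenesis passed as deposited, and Ppargc1a passed as higher with the trend on GC content removed (log2 fold change 0.38). Ppargc1a (ENSMUSG00000029167, chr5:51454250-51567726) had 2681 and 2788 normalised reads in subjective day, against 2998 and 2758 in objective day, and these overlapped (log2 fold change 0.07, SE 0.0665, limma adjusted p = 0.54). Its log2 fold change as deposited was 0.01 without the first and 0.13 without the second objective day sample. Nrf1 (ENSMUSG00000058440, chr6:30047988-30153458) had 1613 and 1588 in subjective day, against 1729 and 1711 in objective day. The Nrf1 replicates were close to each other and the conditions did not overlap, with a log2 fold change of 0.10 (SE 0.0605, 95% CI -0.04 to 0.25, limma adjusted p = 0.328).

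**Figure D2:**
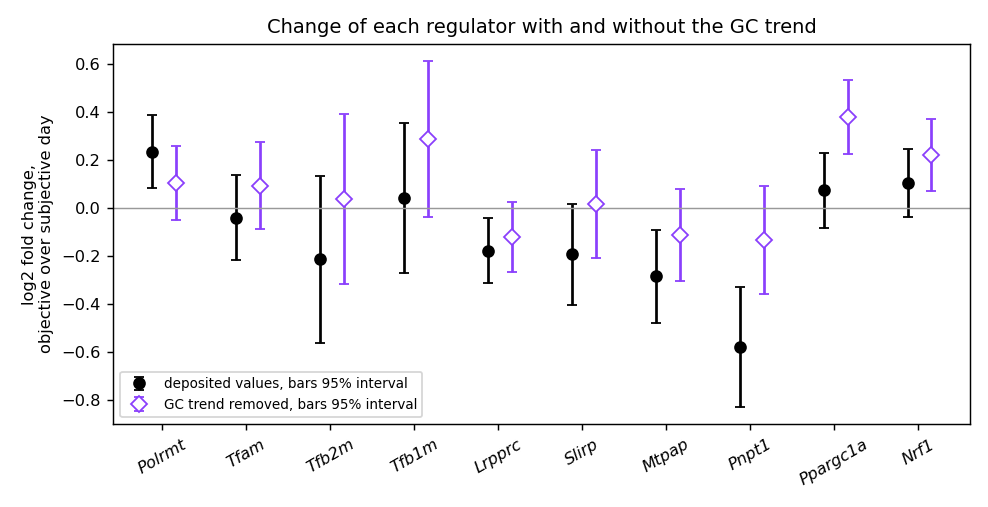
Log2 fold change (objective over subjective day) of each of the 10 genes with its 95% confidence interval from limma, as deposited and with the trend on GC content removed. Pnpt1 lies at -0.58 as deposited and at -0.13 with the trend removed, and Ppargc1a at 0.07 and 0.38.

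Fold changes moved with the GC content of transcripts across the whole table (Spearman's rho 0.583 over 17536 genes, which share the same 4 libraries), and also over the 10 genes (rho 0.515, n = 10, a description). Pnpt1, with 39.6% GC the lowest of the 10, belonged to a group of 877 genes of like GC content whose log2 fold changes had a median of -0.37, with quartiles of -0.54 and -0.17. Polrmt, with 60.5% GC the highest, belonged to a group with a median of 0.15. When the trend was removed in each sample, the log2 fold change of Pnpt1 became -0.13 (95% CI -0.36 to 0.09, limma adjusted p = 0.621) and that of Polrmt 0.10 (limma adjusted p = 0.578), and 1.27% of all genes passed instead of 8.51%.

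Ppargc1a, Tfb1m and Nrf1 had log2 fold changes above the upper quartiles of their GC groups. Lrpprc (-0.18, lower quartile -0.16) and Pnpt1 (-0.58, lower quartile -0.54) lay below the lower quartiles of theirs. By definition, an equal share of every GC group lies above its upper and below its lower quartile. The log2 fold change of Tfb1m was 0.04 beside a group median of -0.25, and that of Nrf1 0.10 beside -0.10. With the trend removed they were at 0.28 (limma adjusted p = 0.446) and 0.22 (0.184). For Ppargc1a, at 41.7% GC the median of its group was -0.25 and its own log2 fold change was 0.07, and with the trend removed it was 0.38 (SE 0.0665, 95% CI 0.22 to 0.53) and passed (limma adjusted p = 0.0468), the only one of the 10 to do so, where 0.61% of all genes passed as higher. With the trend removed, 7 of the 10 genes had positive log2 fold changes, with a median of 0.06, beside 9666 of 17536 genes and a median of 0.02 over the whole table. Tfam, Tfb2m and Slirp were those that turned from negative to positive (0.09, 0.04 and 0.01). The part of GC content in the results as deposited was not tested further.

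**Figure D3:**
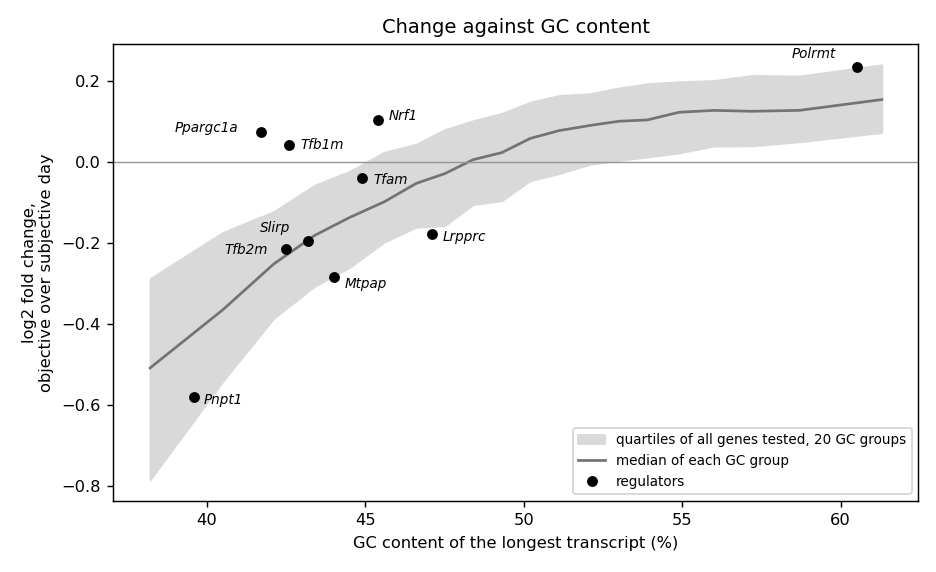
Log2 fold change (objective over subjective day) against GC content of the longest transcript in percent, with a line through the medians and a band between the quartiles of 20 groups of genes of like GC content, and labelled points for the 10 genes. The medians run upward with GC content, Ppargc1a, Tfb1m and Nrf1 lie above the band, Lrpprc lies below it, and Pnpt1 at -0.58 lies inside the band as interpolated between groups and below the lower quartile of its own group (-0.54).

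Partners were also compared within samples, as the difference of their log2 normalised read counts, which removes the scaling of a sample. With 2 samples against 2, the exact permutation test (two-sided) cannot give a p below 0.33. Lrpprc minus Slirp was 2.61 and 2.75 in subjective day, against 2.72 and 2.67 in objective day, so that the conditions overlapped (exact p = 1.0). With the GC trend removed this gap went from 0.02 to -0.14 and the conditions no longer overlapped. Tfam minus Polrmt was -0.86 and -0.82 in subjective day, against -1.12 and -1.11 in objective day (exact p = 0.33), and this gap of -0.27 between conditions became -0.01 with the GC trend removed. Tfb2m minus Polrmt had a gap of -0.45, which became -0.06, and without single samples it ran from -0.57 to -0.33. Tfb2m minus Tfb1m was -0.16 and -0.08 in subjective day, against -0.31 and -0.44 in objective day (exact p = 0.33). These 2 genes have 42.5% and 42.6% GC, and their gap of -0.26 was -0.25 with the trend removed. Pnpt1 minus Mtpap was 0.56 and 0.69 in subjective day, against 0.22 and 0.44 in objective day, a gap of -0.30 that became -0.02 with the trend removed. Without the first objective day sample this gap was -0.18.

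In level, the 10 genes spanned a wide range. Per kilobase of exon, the means over the 4 samples were 426 normalised reads for Ppargc1a, 413 for Lrpprc and 297 for Polrmt, then 206 for Pnpt1, 176 for Slirp, 161 for Nrf1 and 159 for Tfam, and 82.4 for Mtpap, 71.6 for Tfb2m and 65.9 for Tfb1m. Ppargc1a and Lrpprc overlapped over samples, as did Slirp, Nrf1 and Tfam with Pnpt1, Mtpap with Tfb2m, and Tfb1m with Tfb2m. The order depends on the length used: per kilobase of the longest transcript, Lrpprc came first with 800 and Nrf1 had 411. Over the 4 samples, the smallest Euclidean distance between log2 deviations among 45 pairs was that of Ppargc1a and Nrf1 (0.0981). The largest was that of Polrmt and Pnpt1 (0.855). This distance grows with the size of the changes, so that genes that change little lie close even where their courses differ.

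The wider machinery was followed in 6 lists of nuclear genes with 96 genes tested. In objective day 4 of these were lower and 2 were higher, beside 7.45% and 1.06% of all genes tested, and the log2 fold changes had a median of 0.01. Of 15 genes that maintain or transcribe mitochondrial DNA, 1 was lower, the transcription terminator family member Mterf3, with 662 and 839 normalised reads in subjective day, against 516 and 511 in objective day (log2 fold change -0.54, SE 0.118, limma adjusted p = 0.0346). The elongation factor Tefm had a log2 fold change of -0.33 (SE 0.161, limma adjusted p = 0.247), which was -0.20 with the GC trend removed and -0.19 without the second subjective day sample. None of 18 genes for RNA processing and modification, 19 genes for RNA decay and the RNA granule, 12 translation factors and 12 markers of mitochondrial mass passed by limma, and the medians of these lists were 0.01, -0.04, 0.04 and -0.02. Grsf1, an RNA granule protein, had a log2 fold change of -0.14 (SE 0.0681, limma adjusted p = 0.238), which was -0.20 without the first and -0.09 without the second objective day sample.

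Of the 20 coactivators and transcription factors of biogenesis, 3 were lower and 2 were higher, beside 8.51% of all genes tested that passed in either direction, and none passed by limma with the GC trend removed. Both relatives of Ppargc1a rose: Ppargc1b from 2638 and 2675 to 3488 and 3281 normalised reads (log2 fold change 0.35, SE 0.0613, limma adjusted p = 0.0166), and Pprc1 from 904 and 859 to 1220 and 1118 (0.41, SE 0.0765, limma adjusted p = 0.0209). The gap between Ppargc1b and Ppargc1a, compared after the values were seen, was -0.02 and -0.06 in subjective day, against 0.22 and 0.25 in objective day (exact p = 0.33), and it turned from 0.28 to -0.14 with the GC trend removed. Sirt1, a deacetylase that acts on Ppargc1a, fell from 1219 and 1271 to 882 and 784 normalised reads (log2 fold change -0.58, SE 0.0813, limma adjusted p = 0.00784). Creb1, a transcription factor that drives Ppargc1a, fell from 3056 and 3316 to 2420 and 2234 (-0.45, SE 0.0713, limma adjusted p = 0.0114).

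The remaining gene that was lower, named after its values were seen, was Prkaa1, a catalytic subunit of the AMP-activated kinase (log2 fold change -0.33, SE 0.0645, limma adjusted p = 0.024). Esrra (0.08, limma adjusted p = 0.545) and Gabpa (-0.17, limma adjusted p = 0.208), both partners of these coactivators, did not pass. Without single samples, Esrra ran from 0.01 to 0.16 and Gabpa from -0.24 to -0.11. With the GC trend removed, none of the 6 genes passed: Sirt1 was at -0.41 (limma adjusted p = 0.0698), Pprc1 at 0.30 (0.124), Ppargc1b at 0.24 (0.153), Mterf3 at -0.26 (0.336), Creb1 at -0.01 (0.98) and Prkaa1 at 0.08 (0.711). Of the 6, Sirt1 alone also passed without each of the 4 samples in turn. Without the first objective day sample, Mterf3 (0.0846), Prkaa1 (0.157), Ppargc1b (0.138) and Pprc1 (0.154) no longer passed by limma adjusted p. Without the second objective day sample, these 4 (0.0986, 0.14, 0.0567 and 0.0509) and Creb1 (0.0663) did not pass, and without the second subjective day sample Mterf3 did not (0.0565).

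**Figure D4:**
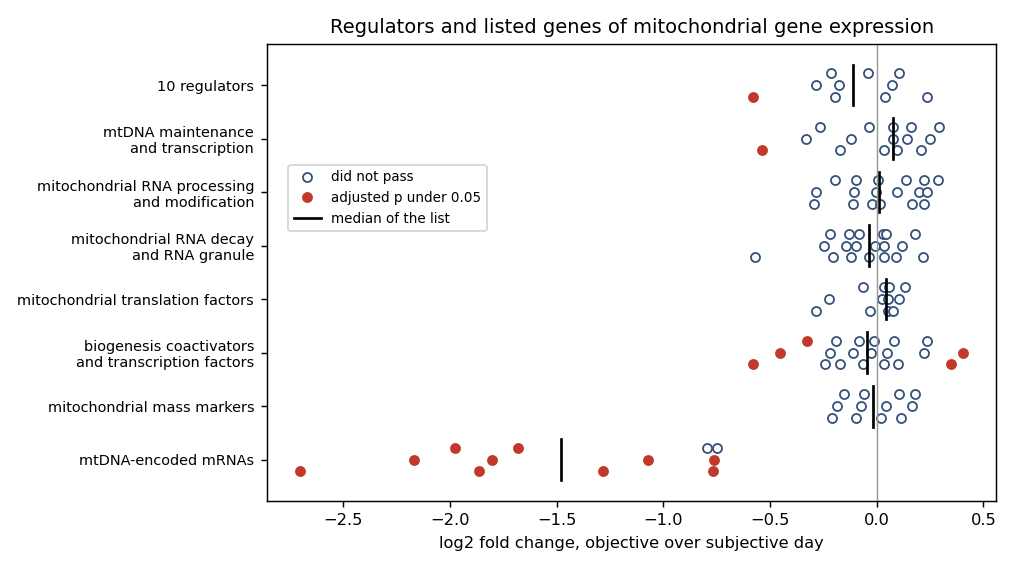
Log2 fold change (objective over subjective day) of each tested gene in the 10 genes described, the 6 lists of nuclear genes and the mRNAs encoded by mitochondrial DNA, with filled points for genes past the threshold and a bar at each median. The nuclear lists have medians between -0.04 and 0.08, and the 12 mitochondrial mRNAs lie between -2.70 and -0.75.

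The transcripts that these factors make and degrade were in the table as 12 mRNAs and 2 ribosomal RNAs encoded by mitochondrial DNA. All 12 mRNAs had lower means in objective day and 10 passed, the log2 fold changes having a median of -1.48 and running from -2.70 (mt-Atp8) to -0.75 (mt-Cytb). Without the second objective day sample, mt-Nd1 (limma adjusted p = 0.0823), mt-Nd5 (0.227) and mt-Co2 (0.111) no longer passed, and mt-Nd5 did not without the second subjective day sample either. The mean log2 normalised read count of the 12 was 16.83 and 16.95 in subjective day, against 15.70 and 15.14 in objective day. That of the 10 nuclear regulators was 9.76 and 9.73 against 9.67 and 9.61, a far smaller gap. With the GC trend removed, the median of the 12 mRNAs was -0.70 and 4 passed. The ribosomal RNAs mt-Rnr1 (log2 fold change -1.46, limma adjusted p = 0.00774) and mt-Rnr2 (-1.28, limma adjusted p = 0.00558) fell too, and neither passed with the GC trend removed (0.112 and 0.142). Libraries were made from poly(A) RNA, so that a shorter tail and a lower level of these mRNAs cannot be told apart.

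Markers of the tissues in the samples gave the following. The 8 rod markers had log2 fold changes with a median of 0.14, and none passed by limma, and of 7 RPE markers tested 1 was lower (Rpe65, limma adjusted p = 0.0286, 0.421 with the GC trend removed and 0.115 without the second objective day sample) with a median of 0.002, while Best1, another RPE gene, was below the limit for testing. The 10 markers of skeletal muscle, a tissue rich in Ppargc1a that can adhere to the eye, summed to 81433 and 90794 normalised reads in subjective day, against 79555 and 88425 in objective day, with none passing by limma. Markers of the ocular surface epithelium summed to 10462 and 10950 in subjective day, against 3024 and 5489 in objective day. Of 6 tested, 4 fell (Krt5, Krt14, Krt15 and Aldh3a1), and these 4 also passed as lower with the GC trend removed. The corneal keratin Krt12 was below the limit for testing. Markers of blood summed to 3054 and 3161 against 4301 and 4574, and 3 of 5 rose, of which 1 (Hba-a1) also passed with the GC trend removed. Hbb-bs and Hbb-bt did not, nor without either objective day sample (limma adjusted p up to 0.0813 and 0.102). The part of surface epithelium and blood in the values of Pnpt1 and the other genes was not tested.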

How the data were processed

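Poly(A) RNA of 4 samples was sequenced as single reads on 1 lane, from libraries made with random primers and without strand marking. Per the submitters' processing notes, reads went through CASAVA 1.8, TopHat2 2.0.9, Bowtie2 2.1.0, HTSeq and edgeR, with Ensembl release 72 genes. The deposited values are a signal per gene, which the authors made by scaling read counts to a common library size, and they are called normalised read counts here. They are fractional and whole reads could not be recovered for every sample, so no count model was used. The strand setting of counting is not given in the sources used here. Relative depth was between 89.1% and 107% of the mean. The authors' own comparison columns (fold change, expression level, p and FDR) were not used.

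Groups were taken from the labels. log2(value + 1) was fitted with limma 3.58.1 (R 4.3.3, trended variance prior) over the 17784 genes that reached a value of 10 in 2 or more samples, with Benjamini-Hochberg adjustment over all of them and a threshold of 0.05; adding 1 understates the fold changes of low genes. The scripts were tested on simulated data. GC content and exon lengths came from GENCODE M21 on GRCm38, the assembly of the deposited table but another annotation release, and GC content was known for 98.6% of the tested genes. The GC trend was removed per sample by loess with a span of 0.3. Promoter windows came from RefSeq. The alternatives were other pseudocounts, filters, scalings and variance priors, GC trend removal, a replicate block and leaving out each sample.

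The 10 genes and the lists were chosen with earlier results of these data known. Named genes were the 10 genes, up to 2 lower and 2 higher genes per list with the smallest adjusted p among those past the threshold whose conditions did not overlap, 7 fixed partners (Ppargc1b, Pprc1, Gabpa, Esrra, Tefm, Supv3l1, Grsf1), and the closest and farthest pair among the 10 genes.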

Additional observations from a re-analysis of the deposited data

How the results depend on the processing

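Of 17784 genes, 1514 passed (1325 lower and 189 higher in objective day), 223 passed with the GC trend removed, and with equal totals 1822 did (1205 lower and 617 higher), where the median log2 fold change of all genes was 0.05. With 1 common variance prior 0 genes passed by limma (3586 at an unadjusted p under 0.05), including 0 of the 10 genes and 0 of the list genes, and leaving out single samples gave between 664 and 2557. Of the 10 genes, 1 passed as deposited, 2 with equal totals (Polrmt and Pnpt1), 2 with both the GC trend removed and a replicate block (Ppargc1a and Nrf1, where 9.03% of all genes passed), and 0 to 1 without single samples. Of the list genes, 6 passed as deposited, 0 with the GC trend removed, 7 (2 lower and 5 higher) with the GC trend removed and a replicate block, and 1 to 9 without single samples. The samples of the conditions share only a number. Deviations of same-numbered samples correlated with r = 0.319 over genes, and with the replicate block 3613 genes passed (20.3%), 4 of the 10 genes (Polrmt, Lrpprc, Mtpap and Pnpt1) and 20 list genes. With the GC trend removed, the log2 fold change reversed for Tfam (0.092), Tfb2m (0.0376), Slirp (0.0146), Gabpa (0.152), Prkaa1 (0.0783) and Supv3l1 (-0.0001). The replicate block did not alter these log2 fold changes, with or without the trend removed. Without single samples the log2 fold change ran from -0.0764 to 0.159 for Tfb1m and from -0.0203 to 0.0814 for Supv3l1. The cause of these shifts was not tested. Where a left-out sample leaves 1 sample in a condition, that sample is assumed to vary like the other condition. With 2 samples per condition the intervals stay wide, the widest of the 10 genes being that of Tfb2m, from -0.56 to 0.13.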
